A study of Mus musculus with 21 samples.

Results

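The genes described here build and load peptide-MHC class I complexes in conventional dendritic cells (cDCs), or are linked to the presentation of captured antigen on class I. They are Tap1, Tap2, Tapbp, Tapbpl, Erap1, Calr, Canx, Pdia3, Nlrc5 and Sec22b. They were taken by name from the 37734 genes listed for each library, giving 10 genes, and the rule for taking them used no measured value. The choice was nevertheless made with earlier results of these data known. All 10 passed the filter on low values that left 14970 genes for testing, and the smallest number of reads behind any of their values was 534.

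Peptides cut from cytosolic proteins by the proteasome enter the endoplasmic reticulum (ER) through TAP, the transporter formed by Tap1 and Tap2, where the aminopeptidase Erap1 trims them. The chaperones Canx and Calr and the thiol oxidoreductase Pdia3 (ERp57) help the class I heavy chain to fold, and tapasin (Tapbp) bridges it to TAP while Tapbpl (TAPBPR) is a second peptide editor. The transactivator Nlrc5 drives class I and class I pathway genes, and the SNARE protein Sec22b has been linked to the delivery of ER components to phagosomes during cross-presentation, a task for which cDC1 are best known.

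The cells were cDCs of C57BL/6 mice (substrain C57Bl6/JRj in the methods) aged 6 to 8 weeks, enriched from enzyme-digested tissue with CD11c beads and sorted by flow cytometry. No treatment or genetic change was given to any group. cDC1 were CD11c+ CD24+ CD11b- cells without F4/80, Ly6g, Ly6c, DX5 or B220, and cDC2 were CD11c+ CD11b+ CD24- cells without B220. Immature cells lacked CCR7 and Esam on their surface and mature cells carried both. The 6 groups were splenic cDC1 (4 samples from 5 libraries), immature thymic cDC1 (4 samples), mature thymic cDC1, and the splenic, the immature thymic and the mature thymic cDC2 (3 samples each). The splenic cells were of the immature gate. Each library was made from the pooled cells of several mice, so that the spread between samples is mostly one between pools. The 4 samples of splenic cDC1 and the 4 of immature thymic cDC1 came from 3 pools each, since splenic replicate 1 shared its pool with the averaged replicates 4 and 5, and thymic replicates 3 and 4 shared theirs. Part of the spread in these 2 groups is thus within a pool, and n counts samples. Leaving out any 1 of the samples that shared a pool within a group changed no call of the 10 genes. Pool numbers were also shared between cDC1 and cDC2 samples, and by mature cDC1 replicate 1 with immature thymic samples. Because the RNA was of sorted bulk cells, a lower level in a group may come from fewer cells with the transcript or from less transcript per cell, and these cannot be told apart.

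Libraries held 14266867 to 40119669 reads. Replicates 4 and 5 of splenic cDC1 shared pool, index and lane, and their counts differed far less from each other (chi-square 2.44 per degree of freedom) than did any further pair within the group (24.99 to 176). They were averaged and counted as 1 sample. Replicates 3 and 4 of immature thymic cDC1 also shared these labels but differed as much as other pairs (92.8 against 22.8 to 86.1) and were kept apart. The mature samples all came from lane 8, whereas 6 of the 14 immature samples came from lane 5. Among cDC1 markers 5 of 6, 6 of 6 and 4 of 6 were lower in cDC2 than in cDC1 in spleen, immature and mature thymic cells, and 6 of 6, 6 of 6 and 5 of 6 cDC2 markers were higher, as the labels say. Of 5 markers of mature cDCs, 5 rose in cDC1 and 4 in cDC2 on maturation in the thymus. The remaining marker, Cd83, had a log2 fold change of 0.55 in cDC2. Markers of other cell types moved as well, and their values stand beside the results on maturation, tissue and subset.

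The positions of the genes are those of GENCODE M21 on GRCm38. Tap1 (17:34187553-34197225), Tap2 (17:34203527-34216321) and Tapbp (17:33915899-33929292) lie in the MHC region on chromosome 17, all on the plus strand. Calr (8:84841850-84846934, minus strand) and Nlrc5 (8:94434356-94527272, plus strand) lie on chromosome 8. The others are Tapbpl (6:125223933-125231860, minus strand), Erap1 (13:74639568-74693201, plus strand), Canx (11:50293961-50325673, minus strand), Pdia3 (2:121413775-121438687, plus strand) and Sec22b (3:97901190-97923276, plus strand). The values count reads over the whole gene, so they cover its exons and not a single isoform. The library kit keeps the strand of the RNA, but the strand setting of the counting is not given in the sources used here. Exons of Tapbp overlap those of the antisense gene Gm19412 over 24.9% of their length, those of Tap2 overlap Gm15821 over 14.1%, and those of Erap1 overlap Cast on the opposite strand over 11.5%. Gm19412 is not among the genes listed for each library. Exons of Tapbp also overlap Zbtb22 on the same strand over 4.11%, and those of Tap2 overlap the antisense gene Gm20496 over 4.36%. Shared reads could affect Tapbp, Tap2 and Erap1. For Tap1 (Psmb9, 3.87%), Nlrc5 (9330175E14Rik, 0.918%) and Pdia3 (Catsper2, 0.573%) the shared exon sequence was short.

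RefSeq promoter windows on GRCm38.p6, from 250 bases before to 50 after the start, were at hand for 7 of the 10 genes, namely Tap1, Tapbp, Erap1, Calr, Canx, Pdia3 and Sec22b. The windows of Calr, Canx and Pdia3 are shown because these genes code for the 3 general chaperones of the ER among the 10, and those of Hspa5, Hsp90b1 and Pdia6 for comparison. Of the 3 genes, Pdia3 was called lower in mature cells of both subsets, Calr in those of cDC1 and Canx in neither. On both strands, the ER stress response element, which is CCAAT and CCACG set apart by any 9 bases, was found in 0.119% of all 32851 windows, among them those of Calr and Canx. Among 9 further ER chaperone and glycan processing genes it was found in Hspa5, Hsp90b1 and Pdia6, and these are shown for that match. Pdia4, with log2 fold changes on maturation of -3.29 in cDC1 and -2.71 in cDC2, had no match. Neither had P4hb (-2.08 in cDC1). Whether the element bears on these changes was not tested. The element was also absent from the window of Pdia3, which held 2 CCAAT boxes. That motif, in 37.4% of all windows, is also the first 5 bases of the longer element. Each stretch of 80 bases below is written 5′ to 3′ on the strand of the gene. Capitals mark the match to the longer element, which reads on the opposite strand in Calr and Hsp90b1, and the CCAAT box in Pdia3. The window of Hsp90b1 held a further match to the longer element, on the strand of the gene from base -212, outside the part shown.
Calr, chr8:84847052-84847131, minus strand: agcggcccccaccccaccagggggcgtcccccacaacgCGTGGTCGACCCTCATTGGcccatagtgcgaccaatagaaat
Canx, chr11:50325779-50325858, minus strand: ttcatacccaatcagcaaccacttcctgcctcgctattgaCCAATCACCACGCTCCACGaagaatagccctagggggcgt
Pdia3, chr2:121413762-121413841, plus strand: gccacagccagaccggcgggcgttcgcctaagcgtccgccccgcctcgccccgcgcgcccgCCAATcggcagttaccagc
Hspa5, chr2:34771985-34772064, plus strand: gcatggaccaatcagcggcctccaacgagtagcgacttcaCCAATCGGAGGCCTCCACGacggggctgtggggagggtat
Hsp90b1, chr10:86705505-86705584, minus strand: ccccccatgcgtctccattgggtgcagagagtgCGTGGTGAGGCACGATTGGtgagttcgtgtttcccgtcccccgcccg
Pdia6, chr12:17266451-17266530, plus strand: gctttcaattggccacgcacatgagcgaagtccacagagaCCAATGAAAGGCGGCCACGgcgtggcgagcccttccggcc

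Tap1 and Psmb9, a catalytic subunit of the immunoproteasome, have RefSeq starts with 225 bases between them on chromosome 17. From these starts they are read away from each other, whereas their exons in GENCODE M21 overlap, as given above. Of the bases between the RefSeq starts, the 200 next to Tap1 are shown because the ratio of the pair is given further on. They hold a GC box, GGGCGG read on the opposite strand and in capitals here, a motif found in 35.7% of all windows. A CCAAT box at base -222 from the Tap1 start lies outside the part shown, and 37.4% of all windows had this motif.
Tap1, chr17:34187356-34187555, plus strand: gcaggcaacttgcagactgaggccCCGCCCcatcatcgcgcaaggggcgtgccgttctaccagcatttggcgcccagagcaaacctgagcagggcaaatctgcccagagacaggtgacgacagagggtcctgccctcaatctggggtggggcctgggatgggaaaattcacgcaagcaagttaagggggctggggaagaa
The core of an interferon-stimulated response element, taken as a pair of GAAA set apart by any 2 bases, was in 3.44% of all windows and, of the 7, in that of Erap1, where it begins 4 bases before the start. An NF-kappaB site, taken as GGGA, any base and TTTCC, and found in 0.411% of all windows, was in none of the 7, and a related palindrome, GGGG and TCCC set apart by any 2 bases and found in 1.67%, was in that of Calr. These matches describe the letters of the windows and no binding was measured.

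Levels are given as normalized read counts, which are the reads of a gene divided by 1 size factor per library, and folds as log2 of this value plus 1. Compared per kilobase of exon, the 10 genes differed widely within a group. In immature thymic cDC1, Calr (16109 per kb) and Pdia3 (14142) stood far above Canx (3125), Tapbp (2999.6), Tap1 (2310.1), Tap2 (1786) and Nlrc5 (1101), while Tapbpl (851), Erap1 (623) and Sec22b (322) were lowest. In mature thymic cDC1 the order was another one, led by Tapbp (10820.0 per kb), with Calr (6959), Nlrc5 (6252), Pdia3 (5817) and Tapbpl (4807) next. Sec22b remained the lowest of the 10 in each of these groups (270.3 per kb in mature thymic cDC1).

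**Figure D1:**
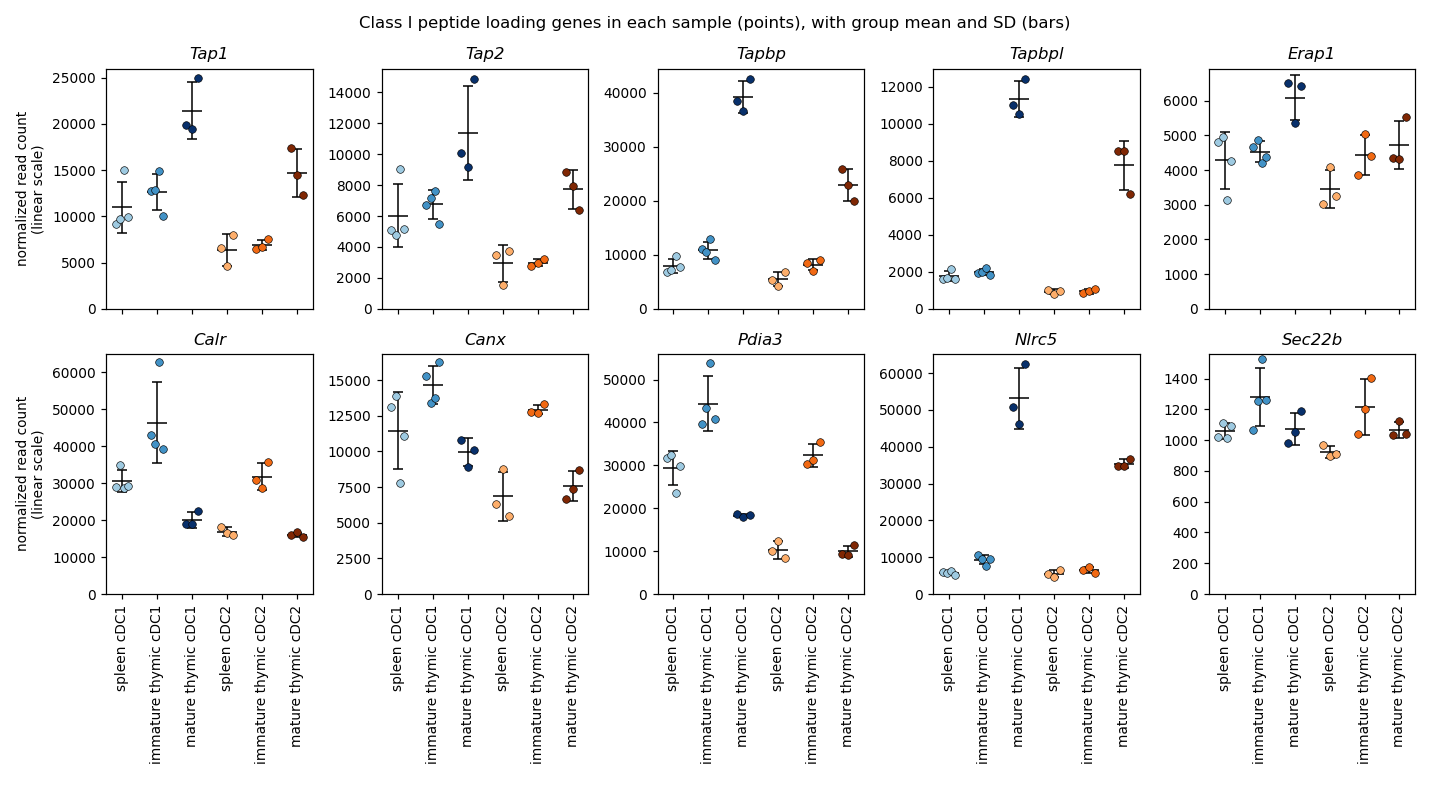
Normalized read counts (linear y axis from 0) of the 10 genes in the 20 samples, 1 panel per gene and 1 column per group; points are samples, long bars are group means and whiskers are the SD. Tapbp, Tapbpl and Nlrc5 stand highest in the 2 mature thymic groups, whereas Calr, Canx and Pdia3 stand highest in the immature thymic groups.

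The first comparison asked how the genes differ between mature and immature cells of the thymus. Tapasin, its relative Tapbpl and the transactivator Nlrc5 rose in mature cDC1 and in mature cDC2, whereas the oxidoreductase Pdia3 fell in both and Calr fell past the fold threshold in cDC1. TAP subunits rose past the threshold in cDC2. A gene counted as called when its adjusted p was below 0.1 and its level differed more than 2-fold, which is a log2 fold change beyond 1 in either direction. In cDC1 3 of the 10 genes were called higher and 2 lower, and among all genes tested 21.3% were called higher and 24.5% lower. In cDC2 5 were called higher and 1 lower, against 18.6% and 17.0% of all genes. The 5 calls in cDC1 are thus near the background of 45.7% for either direction, and the 6 calls in cDC2 stand beside one of 35.6%. By adjusted p alone 6 genes were higher and 3 lower in cDC1, where 30.4% and 33.7% of all genes were, and 5 were higher and 3 lower in cDC2, where 27.7% and 25.5% were. The median log2 fold change of the 10 genes was 0.58 in both subsets, and that of all genes tested was -0.04 in cDC1 and 0.04 in cDC2. Sample values of mature and immature cells did not overlap for 9 of the 10 genes in cDC1 and 8 in cDC2, where this held for 55.3% and 60.0% of all genes.

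Tapbpl, the peptide editor related to tapasin, showed a large rise in both subsets. Its normalized read counts were 1947, 2011, 2228 and 1822 in immature and 11011, 10514 and 12394 in mature thymic cDC1, and 830.5, 943 and 1089 in immature and 8517, 8500.4 and 6222 in mature thymic cDC2. Each mature sample was above each immature one by a wide gap. The log2 fold change was 2.50 ± 0.15 (SE; adjusted p 1.49e-11) in cDC1, which is a 5.65-fold rise, and 3.01 ± 0.16 (SE; adjusted p 8.92e-12) in cDC2, or 8.08-fold.

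Tapbp, which holds the class I heavy chain at TAP, had counts of 11031, 10567, 12875 and 9057 in immature and 38534, 36662 and 42568 in mature thymic cDC1. In cDC2 they were 8548, 7038 and 8977 in immature and 25948, 22842 and 19934 in mature cells. The groups were again apart in both subsets, and the mature cDC1 samples were all above the mature cDC2 samples. Tapbp rose by 1.86 ± 0.17 (SE; adjusted p 1.29e-08) on the log2 scale in cDC1 and by 1.48 ± 0.19 (SE; adjusted p 1.46e-06) in cDC2.

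Nlrc5, the transactivator of class I genes, had counts of 10607, 9436, 7712 and 9639 in immature and 50847, 46114 and 62342 in mature thymic cDC1. The cDC2 values were 6535, 7368 and 5625 and 34771, 34749 and 36711 in the same order. No mature sample came near an immature one. The log2 fold changes, 2.50 ± 0.15 (SE; adjusted p 2.10e-11) in cDC1 and 2.45 ± 0.16 (SE; adjusted p 2.40e-10) in cDC2, correspond to 5.67-fold and 5.47-fold rises.

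The TAP subunits changed less. Tap1 counts were 12759.9, 12838, 14914 and 10088 in immature and 19879, 19417 and 24953 in mature thymic cDC1, and 6498, 6669.8 and 7537 and 17405, 14449 and 12263 in cDC2. Tap2 counts were 6744, 7197, 7589.8 and 5475 in immature and 10072, 9185 and 14868 in mature thymic cDC1, and 2756, 2958 and 3227 and 8853, 7932 and 6386 in cDC2. For both subunits each mature sample was above each immature sample of its subset. In cDC2 both were called, with log2 fold changes of 1.08 ± 0.22 (SE; adjusted p 0.000329) for Tap1 and 1.36 ± 0.28 (SE; adjusted p 0.000458) for Tap2. In cDC1 the values of 0.76 ± 0.20 (SE; adjusted p 0.00284) and 0.73 ± 0.26 (SE; adjusted p 0.0225) passed the adjusted p but not the fold. The Tap1 call in cDC2 lies near the threshold, and its log2 fold change was 0.951 without mature thymic cDC2 replicate 1. With the lane as a covariate it was 0.994, and neither is called.

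Pdia3, the thiol oxidoreductase of the loading complex, moved the other way. Its counts were 39687, 43242, 53733 and 40908 in immature and 18548, 17861 and 18367 in mature thymic cDC1, and 30252, 31310.2 and 35429 and 9224, 9183 and 11403 in cDC2. Mature samples lay below all immature ones in both subsets. Pdia3 fell 2.41-fold in cDC1, a log2 fold change of -1.27 ± 0.17 (SE; adjusted p 1.29e-06), and 3.26-fold in cDC2, one of -1.71 ± 0.18 (SE; adjusted p 1.13e-07).

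Calr, the soluble lectin chaperone of the ER, had counts of 43017, 40558, 62708 and 39294 in immature and 18862, 18841 and 22419 in mature thymic cDC1. In cDC2 they were 30841, 28626 and 35848 in immature and 16052, 16660.4 and 15535 in mature cells. The third immature cDC1 sample stood above the rest of its group, and without it the log2 fold change in cDC1 was -1.03. The log2 fold change was -1.19 ± 0.17 (SE; adjusted p 3.29e-06) in cDC1, which was called, and -0.98 ± 0.18 (SE; adjusted p 0.000119) in cDC2, which passed the adjusted p and missed the fold. Without immature thymic cDC2 replicate 2 or mature thymic cDC2 replicate 2 the cDC2 value was -1.05 or -1.002 and was called. The membrane-bound partner Canx had log2 fold changes of -0.56 ± 0.19 (SE; adjusted p 0.0138) in cDC1 and -0.78 ± 0.20 (SE; adjusted p 0.00283) in cDC2, not called. Its counts ranged over 13402 to 16283 and 8911 to 10812 in immature and mature cDC1, and over 12679 to 13293 and 6645 to 8697 in cDC2, without overlap.

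Erap1 and Sec22b had the smallest log2 fold changes of the 10 genes in both subsets. Erap1 counts ranged over 4212 to 4879.7 in immature and 5346 to 6502 in mature thymic cDC1, with a log2 fold change of 0.42 ± 0.16 (SE; adjusted p 0.0298), and over 3866 to 5037 and 4316 to 5517 in cDC2, with one of 0.09 ± 0.17 (SE; adjusted p 0.705). Sec22b counts ranged over 1069 to 1529 and 984 to 1187 in cDC1 and over 1039.7 to 1402 and 1032 to 1127 in cDC2, and its groups overlapped. For Sec22b the 95% interval of the log2 fold change was -0.52 to 0.04 in cDC1 and -0.48 to 0.12 in cDC2, so that a change of 2-fold lies outside both.

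The mature samples were all from lane 8, and within that lane the differences were close in size. There the mean log2 difference was 2.49 and 2.92 for Tapbpl, 2.57 and 2.46 for Nlrc5, 1.87 and 1.52 for Tapbp, and -1.32 and -1.75 for Pdia3 in cDC1 and cDC2. Markers of T cells moved with maturation. Of the 6 markers 5 were tested and all 5 rose in both subsets, and their summed counts were 130 to 214 in immature and 1140.3 to 1866 in mature cDC1. In cDC2 the sums were 149 to 237 in immature and 614 to 922 in mature cells. The marker not tested was Ptcra, which was at 0 in every immature thymic cDC1 sample and at 0 to 2.40 in mature cDC1, 0 to 1.56 in immature and 0 to 1.39 in mature cDC2. Thymic epithelial markers rose as well, 1 of 4 in cDC1 and 3 of 4 in cDC2, with summed counts of 109 to 299 in mature cDC1 and 342 to 615 in mature cDC2 against 42.4 to 94.9 and 81.7 to 101 in immature cells. Plasmacytoid DC markers fell, 2 of 4 in cDC1 and 3 of 4 in cDC2. Their summed counts were 5168 to 5954 in immature and 5014 to 8047 in mature cDC1, and 10532 to 12114 and 6002 to 7951 in cDC2.

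Markers of macrophages moved in both directions. Of 4 macrophage markers tested Mertk rose while Emr1 (F4/80) and C1qa fell in cDC1, and Emr1 fell in cDC2. Their summed counts were 220.3 to 323 in immature and 77.99 to 351 in mature cDC1. In cDC2 they were 5254 to 7787 in immature and 1648 to 10829.9 in mature cells, so that the mature cDC2 samples lay on both sides of the immature ones. The B cell marker Ms4a1 was not called in cDC1 and rose in cDC2, with counts of 83.6 to 113 in immature and 78.4 to 127 in mature cDC1 and of 13.9 to 28.8 and 66.8 to 86.8 in cDC2. Of NK cell markers 1 was tested and of erythroid markers 2, and none was called, while no neutrophil marker passed the filter. Of the cDC1 markers themselves 4 of 6 fell and Batf3 rose in mature cDC1, and in mature cDC2 3 fell while Batf3 (2.78) and Irf8 (2.49) rose, with summed counts of 3028 to 5156 in immature and 14300.3 to 22358 in mature cDC2. Of the cDC2 markers 4 of 6 fell and Irf4 rose in cDC1, and 5 of 6 fell in cDC2. The part of these cells and markers in the results was not tested.

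**Figure D2:**
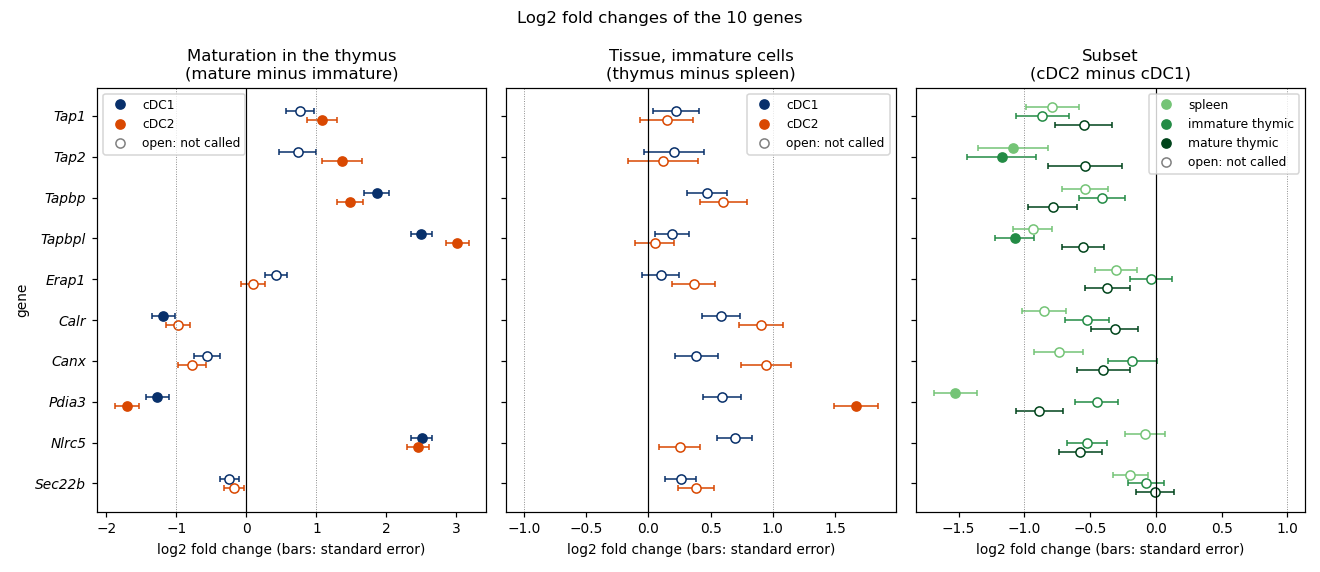
Log2 fold changes (x axis) of the 10 genes (y axis) with their standard errors for maturation, tissue and subset; filled points were called by adjusted p and fold (dotted lines mark the fold), open points were not. Tapbp, Tapbpl and Nlrc5 lie right and Pdia3 and Calr left of 0 for maturation, all 10 lie right of 0 for tissue, and all 10 lie left of 0 for subset, although values near 0 crossed it under other settings.

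A test of the difference between the maturation effects in cDC2 and cDC1 called none of the 10 genes, where 13.6% of all genes were called. edgeR and DESeq2 called none either. With limma 1 gene had an unadjusted p below 0.05, a cutoff for which no share of all genes is given here. It was Tapbpl, with a difference of 0.52 ± 0.22 (SE; adjusted p 0.130). The lack of calls does not show that the effects were alike. The 95% interval of the difference was 0.06 to 0.97 for Tapbpl and -0.52 to 0.42 for Nlrc5, and for Tap2 it reached from -0.17 to 1.44.

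Lists of genes around the loading step were described in the same way, beside the shares over all genes, of which 21.3% rose and 24.5% fell in cDC1 and 18.6% rose and 17.0% fell in cDC2. All 3 genes for the class I molecule itself rose in both subsets. The heavy chain H2-K1 rose by 1.88 and 1.99 on the log2 scale in cDC1 and cDC2, H2-D1 by 1.44 and 1.67, and the light chain B2m by 1.85 and 1.48. Of 5 genes for the immunoproteasome and its activator PA28, 3 rose in cDC1 and 5 in cDC2. Psme2, a PA28 subunit, had the largest rise of the list in both, 2.26 and 2.47. The catalytic subunit Psmb9 rose in cDC2 (1.47 ± 0.22 SE, adjusted p 1.29e-05) and had a value of 0.39 ± 0.21 (SE; adjusted p 0.115) in cDC1, and the difference between these effects passed the test (1.09 ± 0.30 SE, adjusted p 0.0200).

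Of 9 ER chaperones and glycan processing genes, 5 fell in cDC1 and 6 in cDC2, and none rose. The list's median log2 fold change was -1.95 and -1.34. Pdia4 and Pdia6, oxidoreductases of the family of Pdia3, fell in both subsets, with log2 fold changes of -3.29 and -3.02 in cDC1 and -2.71 and -2.53 in cDC2. Hspa5 (BiP) had log2 fold changes of -1.95 and -1.70, and Hsp90b1 (gp96) of -2.51 and -2.26. The falls of Pdia3 and Calr were thus smaller in size than those of these 4 genes in cDC1. That order between genes was not tested.

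Among 10 transcription factors of class I genes, 3 rose in each subset and none fell. They were the same 3 genes, namely Irf1, an interferon regulatory factor, and Rfx5 and Rfxank, subunits of the RFX complex through which Nlrc5 acts. Irf1 counts ranged over 1164 to 1578 and 40435 to 52848 in immature and mature cDC1, and over 2047 to 2488 and 17309 to 18896 in cDC2. Its log2 fold changes were 5.04 ± 0.17 and 3.00 ± 0.18, and the rise was smaller in cDC2 by the test of the difference (-2.05 ± 0.24 SE, adjusted p 1.11e-05). Rfx5 had values of 1.14 and 1.13, and Rfxank of 1.37 and 1.10.

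Of 15 genes of cross-presentation traffic and protein export from the ER, 3 rose and 4 fell in cDC1, and 0 rose and 4 fell in cDC2. Wdfy4, which cDC1 need to cross-present cell-bound antigen, had counts of 101362 to 127965 in immature and 863 to 1763 in mature cDC1, and of 56293 to 61060.2 and 2089 to 3237 in cDC2. Its log2 fold changes of -6.59 ± 0.23 (SE; adjusted p 3.94e-15) and -4.43 ± 0.24 (SE; adjusted p 1.40e-11) were the largest falls of the list, and the fall was smaller in cDC2 (difference 2.17 ± 0.33 SE, adjusted p 0.000176). The receptor for dead cells Clec9a fell in both subsets (-2.55 and -3.22), as did Rac2, a GTPase that serves the phagosomal oxidase (-1.76 and -2.28). Stx4a, Snap23 and Vcp rose in cDC1, by 1.13, 1.06 and 1.14. Among 6 peptidases of the cytosol and endosomes, the cytosolic Thop1 fell in both subsets (-4.90 and -2.39) and Npepps rose in cDC1 (1.08). Over all 48 genes of the lists, 13 rose and 10 fell in cDC1 (27.1% and 20.8%), and 11 rose and 11 fell in cDC2 (22.9% each). These shares were near those of all genes.

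**Figure D3:**
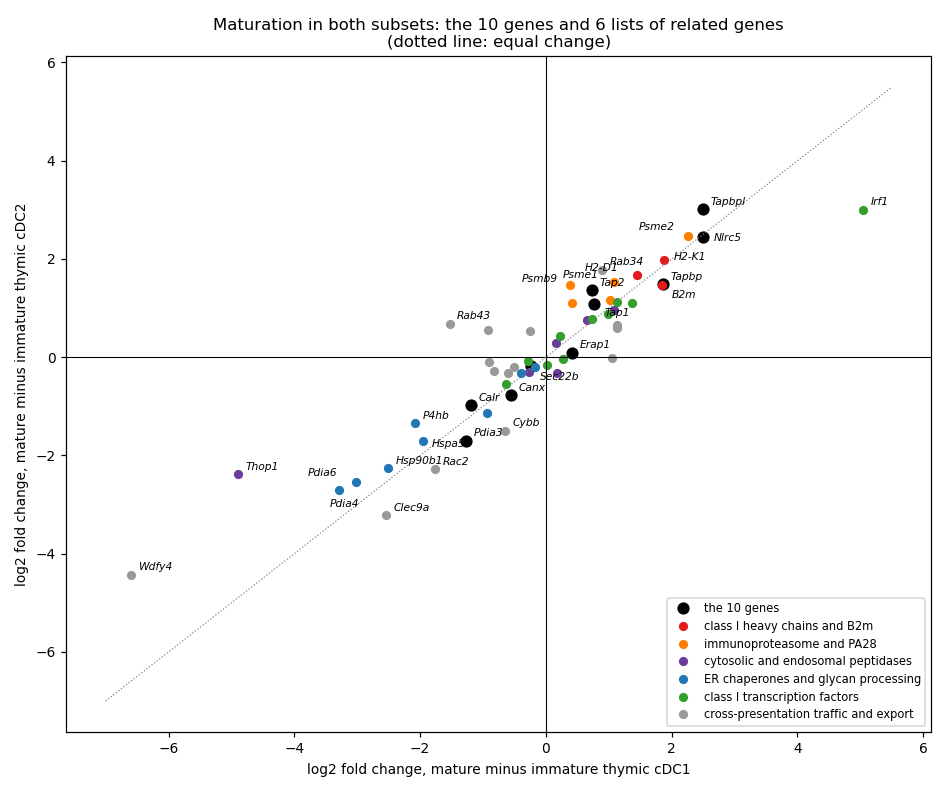
Log2 fold change of maturation in thymic cDC1 (x axis) and cDC2 (y axis) for the 10 genes (black) and genes of 6 lists (colours), 1 point per gene. Of the 48 list genes, Ero1a is not drawn. The dotted line marks equal change. The class I and PA28 genes lie with Tapbp and Tapbpl at the upper right, the ER chaperones with Pdia3 and Calr at the lower left, and Wdfy4 lies farthest left at -6.59.

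The second comparison set immature thymic against splenic cells. None of the 10 genes was called in cDC1, where 8.77% of all genes were called by limma, and edgeR and DESeq2 called none of them either. By adjusted p alone 4 genes were higher in the thymus, where 7.72% of all genes were higher by this rule. They were Nlrc5 (0.69 ± 0.14 SE, adjusted p 0.00171), Pdia3 (0.60 ± 0.15 SE, adjusted p 0.0109), Calr (0.58 ± 0.15 SE, adjusted p 0.0129) and Tapbp (0.47 ± 0.16 SE, adjusted p 0.0633). With limma 6 genes had an unadjusted p below 0.05, and the share of all genes at this looser cutoff is not given here. In cDC2 the test called 1 gene, Pdia3, with 14.2% of all genes called in either direction. By adjusted p alone 5 genes were higher, with a background of 14.9%. They were Pdia3, Canx (0.95 ± 0.20 SE, adjusted p 0.00162), Calr (0.91 ± 0.18 SE, adjusted p 0.000854), Tapbp (0.60 ± 0.19 SE, adjusted p 0.0253) and Sec22b (0.38 ± 0.14 SE, adjusted p 0.0681). Groups did not overlap for 3 genes in cDC1 and 5 in cDC2, where 17.8% and 39.3% of all genes did not.

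Pdia3 counts were 9917, 12405 and 8465 in splenic cDC2, all below the immature thymic values given above. In splenic cDC1 they were 31699, 32516, 23564 and 29792, also below each immature thymic cDC1 sample. The rise in cDC2 was 3.18-fold (1.67 ± 0.18 SE, adjusted p 7.96e-07), against 1.51-fold in cDC1, and the difference between the tissue effects passed the test (1.07 ± 0.23 SE, adjusted p 0.00750). It was the 1 gene of the 10 called there, where 4.98% of all genes were. With lane 8 alone the difference was 1.19 (adjusted p 0.149), and without splenic cDC2 replicate 3 it was 0.944, neither of them called.

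The chaperones Calr and Canx were higher in thymic than in splenic cDC2 by adjusted p alone. Calr counts in splenic cDC2 were 18223, 16557 and 15886 and those of Canx 6312, 8759 and 5436, below each immature thymic cDC2 sample in both cases. Canx passed the fold as well without splenic cDC2 replicate 2 (1.14) and with the lane as a covariate (1.04), and both Canx (1.26) and Calr (1.01) did with lane 8 alone, where splenic cDC2 held 1 sample. In splenic cDC1 Calr had counts of 28981, 34933, 28629.7 and 29377, below each immature thymic cDC1 sample, and Canx had counts of 13101, 13888, 7777 and 11059, which overlapped the thymic range. Nlrc5 counts in splenic cDC1 were 5880.2, 5622, 6226 and 5283, below each immature thymic cDC1 sample. Those in splenic cDC2, 5522, 4492 and 6459, overlapped the thymic values.

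All 10 genes had a log2 fold change above 0 in both tissue comparisons, as had 50.5% and 51.3% of all genes tested, but several of these values were close to 0 and some crossed it. With lane 8 alone Tap2 was below 0 in cDC1, and Tap1, Tap2 and Nlrc5 were below 0 in cDC2, while rescaling by the upper quartile or the lane as a covariate turned Tapbpl in cDC2. The medians were 0.32 in cDC1 and 0.37 in cDC2, and those of all genes were 0.00 and 0.02. The TAP subunits and Tapbpl lay between 0.05 and 0.22 in both. Of the 48 genes of the lists, 2 were higher and 3 lower in thymic cDC1 (4.17% and 6.25%), where 4.26% and 4.52% of all genes were. In thymic cDC2 6 were higher and 2 lower (12.5% and 4.17%), where 8.3% and 5.87% of all genes were. Among the ER chaperones Pdia4 was higher in both (1.06 and 2.25), with a larger effect in cDC2 (difference 1.20 ± 0.25 SE, adjusted p 0.00502), and Hsp90b1 (1.73) and Pdia6 (1.70) were higher in cDC2. Cybb, the catalytic subunit of the phagosomal oxidase, was lower in thymic cDC1 (-2.91), and Rac2 was lower in both (-2.30 and -1.36). The immature thymic samples also served in the comparisons of maturation, so that the 2 sets of values are not independent of each other.

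Markers of other cells moved with tissue too. T cell markers were higher in the thymus, 4 of the 5 tested in cDC1 and 3 in cDC2, and their summed counts were 48.4 to 83.8 in splenic cDC1 and 24.4 to 67.7 in splenic cDC2. Thymic epithelial markers were higher too, 3 of 4 in cDC1 and 4 of 4 in cDC2, with sums of 0 to 4.50 in splenic cDC1 and 0 to 10.1 in splenic cDC2. Erythroid markers were lower, 2 of the 2 tested in each, with sums of 26.8 to 70.2 in splenic and 0 to 0.833 in immature thymic cDC1 and of 11.9 to 29.4 and 0 to 3.35 in cDC2. Of plasmacytoid DC markers 1 of 4 was higher in thymic cDC1 and 4 of 4 in thymic cDC2, where their summed counts were 10532 to 12114 against 3267 to 3959.8 in splenic cDC2. The B cell marker Ms4a1 was lower in the thymus in both subsets, with counts of 410.1 to 903 in splenic cDC1 and 117 to 244 in splenic cDC2. The NK cell marker Gzma was lower in thymic cDC2, and no neutrophil marker passed the filter.

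Markers of macrophages and of mature cDCs moved with tissue in cDC2, where Pdia3 was called. Of 4 macrophage markers tested none was called in cDC1, and C1qa and C1qb were higher in thymic cDC2. C1qa counts were 251 to 444 in splenic and 1614 to 2797 in immature thymic cDC2, and those of C1qb were 296 to 533 and 1717 to 3148. The summed counts of the macrophage list were 4848 to 5884 and 5254 to 7787. Of the 5 markers of mature cDCs none was called in cDC1, and in thymic cDC2 Fscn1 and Il12b were higher and Esam lower. Fscn1, which codes for the actin bundler fascin, had counts of 317 to 987 in splenic and 2972 to 4640.2 in immature thymic cDC2, whereas the sums of the list were 37540.0 to 43152 and 24350.1 to 32680.2. Of the cDC1 markers 1 was lower in thymic cDC1, and 1 was higher and 2 were lower in thymic cDC2. Of the cDC2 markers 1 was higher and 4 were lower in thymic cDC1, and 1 was higher and 2 were lower in thymic cDC2. The part of these cells and markers in the results was not tested.

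The third comparison set cDC2 against cDC1, of which cDC1 are the better known for cross-presentation. In the spleen 2 genes were lower in cDC2, Pdia3 (-1.52 ± 0.17 SE, adjusted p 4.75e-07) and Tap2 (-1.09 ± 0.26 SE, adjusted p 0.00390), and none was higher. The Tap2 call in the spleen was lost without splenic cDC1 replicate 3 (-0.872) or splenic cDC2 replicate 2 (-0.684), and with lane 8 alone (-0.872). Among all genes 6.7% were called lower and 9.93% higher. In immature thymic cells 2 were lower, Tap2 (-1.17 ± 0.26 SE, adjusted p 0.00222) and Tapbpl (-1.07 ± 0.15 SE, adjusted p 1.31e-05), with 5.42% of all genes lower and 11.0% higher. The Tapbpl value was -0.978 without immature thymic cDC2 replicate 1 and -0.990 with lane 8 alone, past the adjusted p but not the fold. In mature thymic cells none was called by limma, edgeR or DESeq2, where 4.36% of all genes were called lower and 14.6% higher. There 6 genes had an unadjusted p below 0.05 with limma, and the share of all genes at this looser cutoff is not given here. By adjusted p alone 7, 6 and 5 genes were lower in cDC2 in the spleen, immature thymic and mature thymic cells, with 13.4%, 10.5% and 9.27% of all genes lower by this rule.

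The TAP subunits were lower in cDC2 by adjusted p in the immature cells of both tissues. Tap1 was so in mature thymic cells too. Tap2 counts were 5113, 4773, 9071 and 5147 in splenic cDC1 and 3504, 1567 and 3733 in splenic cDC2, and those of Tap1 were 9181, 9759.9, 15051 and 9927 and 6547, 4588 and 8033. Neither gene had a splenic cDC2 sample above a splenic cDC1 sample, and in immature thymic cells the groups given above were apart too. The Tap1 log2 fold changes of -0.79 ± 0.20 (SE; adjusted p 0.00587) in the spleen and -0.86 ± 0.20 (SE; adjusted p 0.00309) in immature thymic cells passed the adjusted p but not the fold. In mature cells the values were -0.55 for Tap1 (adjusted p 0.0732) and -0.54 for Tap2 (adjusted p 0.183). There too each cDC2 sample was below each cDC1 sample for both genes.

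Tapbpl counts were 1622, 1682, 2145 and 1614 in splenic cDC1 and 1017, 781 and 969.5 in splenic cDC2, and Tapbpl stayed below the fold threshold there (-0.93 ± 0.15 SE, adjusted p 6.44e-05), except that it was -1.01 without splenic cDC2 replicate 1. Its cDC2 samples were below all cDC1 samples in the spleen, in immature and in mature thymic cells. Tapbp counts were 6781, 7223, 9732 and 7733 in splenic cDC1 and 5358, 4221 and 6813 in splenic cDC2, which overlapped by 1 sample. Its log2 fold change was -0.54 ± 0.17 (SE; adjusted p 0.0271) in the spleen, -0.41 ± 0.17 (SE; adjusted p 0.112) in immature and -0.78 ± 0.19 (SE; adjusted p 0.00419) in mature thymic cells. For Nlrc5 no difference was detected in the spleen (-0.08 ± 0.15 SE, adjusted p 0.796; 95% interval -0.40 to 0.24), and its values were -0.52 ± 0.15 (SE; adjusted p 0.0167) in immature and -0.57 ± 0.16 (SE; adjusted p 0.0146) in mature thymic cells.

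All 10 genes had a log2 fold change below 0 in the 3 subset comparisons, as had 48.6%, 49.0% and 41.1% of all genes tested. The medians were -0.76, -0.49 and -0.54, beside 0.02, 0.01 and 0.14 over all genes. Some values near 0 crossed it under other settings, such as Nlrc5 in the spleen and Erap1 in immature thymic cells with lane 8 alone, and Sec22b in mature cells after rescaling by TMM. Groups did not overlap for 6, 8 and 8 of the 10 genes, where 31.6%, 34.8% and 32.8% of all genes did not.

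Of the 48 genes of the lists, 1 was higher and 10 were lower in splenic cDC2 (2.08% and 20.8%), 2 were higher and 4 lower in immature thymic cDC2 (4.17% and 8.33%), and 5 were higher and 2 lower in mature thymic cDC2 (10.4% and 4.17%). Cybb, the catalytic subunit of the phagosomal oxidase, was higher in cDC2 in all 3 comparisons (3.58, 5.495 and 4.65). Rac2 was higher in immature (1.87) and mature (1.34) thymic cDC2, and the small GTPase Rab27a (1.54) and the peptidase Thop1 (2.33) in mature ones. Clec9a, which is also among the cDC1 markers, was lower in cDC2 in all 3 (-3.94, -4.36 and -5.03), and Irf1 was lower in mature cDC2 (-1.34). Of the ER chaperones Pdia4 (-1.51), Hsp90b1 (-1.51) and Pdia6 (-1.22) were lower in splenic cDC2, as were Wdfy4 (-1.44) and Rab43 (-1.38), and Rab43 was lower in immature thymic cDC2 as well (-2.005). Of the immunoproteasome genes Psmb8 (-1.06) and Psmb9 (-1.38) were lower in splenic cDC2, and Psmb9 (-1.42) and Psme1 (-1.04) in immature thymic cDC2. The 3 class I genes H2-K1, H2-D1 and B2m were called in no subset comparison.

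Markers of other cells moved with the subset as well. Macrophage markers were higher in cDC2, 4 of the 4 tested in each comparison, with summed counts of 4848 to 5884 in splenic cDC2 and 161 to 256 in splenic cDC1, and Vsig4 was at 0 in every sample of the 6 groups. The thymic sums stand with maturation above. Of 4 plasmacytoid DC markers Ccr9 and Siglech were lower in splenic cDC2, Tcf4 was higher in immature and Siglech in mature thymic cDC2, and the sums in the spleen were 3267 to 3959.8 in cDC2 and 3344 to 3862 in cDC1. The B cell marker Ms4a1 was lower in splenic and in immature thymic cDC2 and was not called in mature cells. The NK cell marker Gzma was higher in splenic cDC2, with sums of the 3 NK cell markers of 96.1 to 176 against 0 to 1.03. Of 5 T cell markers tested Cd3g was higher and Cd8b1 lower in splenic cDC2, and Cd8b1 was lower in mature thymic cDC2. Of thymic epithelial markers Psmb11 was higher in mature thymic cDC2, and no erythroid marker was called.

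Markers of mature cDCs differed between the subsets within the immature gate. Ccr7 was higher and Il12b lower in splenic cDC2. In immature thymic cDC2 Ccr7 and Fscn1 were higher and Esam and Il12b lower, and in mature thymic cDC2 Il12b was lower. Ccr7, the chemokine receptor used for the gate, had counts of 2662 to 3986 in immature thymic cDC2 and 556 to 966 in immature thymic cDC1. Those of Fscn1 were 2972 to 4640.2 and 273 to 431. The part of these cells and markers in the results was not tested.

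The order of the group means sums up these levels for each gene. For Tapbpl it ran from mature thymic cDC1 (11306 ± 974 SD, n = 3) over mature thymic cDC2 (7747 ± 1320.0 SD, n = 3), immature thymic cDC1 (2002 ± 170.0 SD, n = 4), splenic cDC1 (1766 ± 255 SD, n = 4) and immature thymic cDC2 (954 ± 129.5 SD, n = 3) to splenic cDC2 (922 ± 125 SD, n = 3), a span of 12.3-fold. Neighbours were separated at an adjusted p below 0.1 except for immature thymic and splenic cDC1 and for immature thymic and splenic cDC2. Nlrc5 spanned 9.67-fold from 53101 ± 8346 (SD, n = 3) in mature thymic cDC1 to 5491 ± 984 (SD, n = 3) in splenic cDC2, and its 3 lowest groups, immature thymic cDC2, splenic cDC1 and splenic cDC2, were not separated from each other as neighbours. Tapbp spanned 7.18-fold between the same 2 groups, from 39255 ± 3018 (SD, n = 3) to 5464 ± 1299 (SD, n = 3).

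Tap1 and Tap2 also had their highest mean in mature thymic cDC1 and their lowest in splenic cDC2, with spans of 3.35-fold and 3.88-fold. In both, splenic cDC1 and immature thymic cDC2 were separated, and the 2 mature groups were separated for Tap1 (adjusted p 0.0732). Calr, Canx, Pdia3 and Sec22b instead were highest in immature thymic cDC1. Pdia3 spanned 4.47-fold, from 44392 ± 6399 (SD, n = 4) there to 9937 ± 1269.7 (SD, n = 3) in mature thymic cDC2, and Calr spanned 2.88-fold between the same groups. Canx (2.15-fold), Erap1 (1.76-fold) and Sec22b (1.38-fold) had small spans, and no neighbours in their orders were separated.

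Ratios within a sample do not depend on the size factor. Per kilobase of exon, the ratio of Tapbp to Calr was 0.189 ± 0.020 (SD, n = 4) in immature and 1.56 ± 0.058 (n = 3) in mature thymic cDC1, and 0.205 ± 0.013 (n = 3) and 1.13 ± 0.137 (n = 3) in cDC2. Tapasin transcripts were thus fewer than those of Calr per kilobase in each immature sample and more in each mature one. The ratio of Tapbpl to Tapbp was 0.286 ± 0.020 and 0.444 ± 0.0044 in immature and mature cDC1, and 0.181 ± 0.029 and 0.521 ± 0.048 in cDC2, without overlap in either subset. The ratio of Tap2 to Tap1 had group means from 0.626 to 0.785, and that of Psmb9 to Tap1 had means from 0.605 to 0.946. These ratios were not tested.

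**Figure D4:**
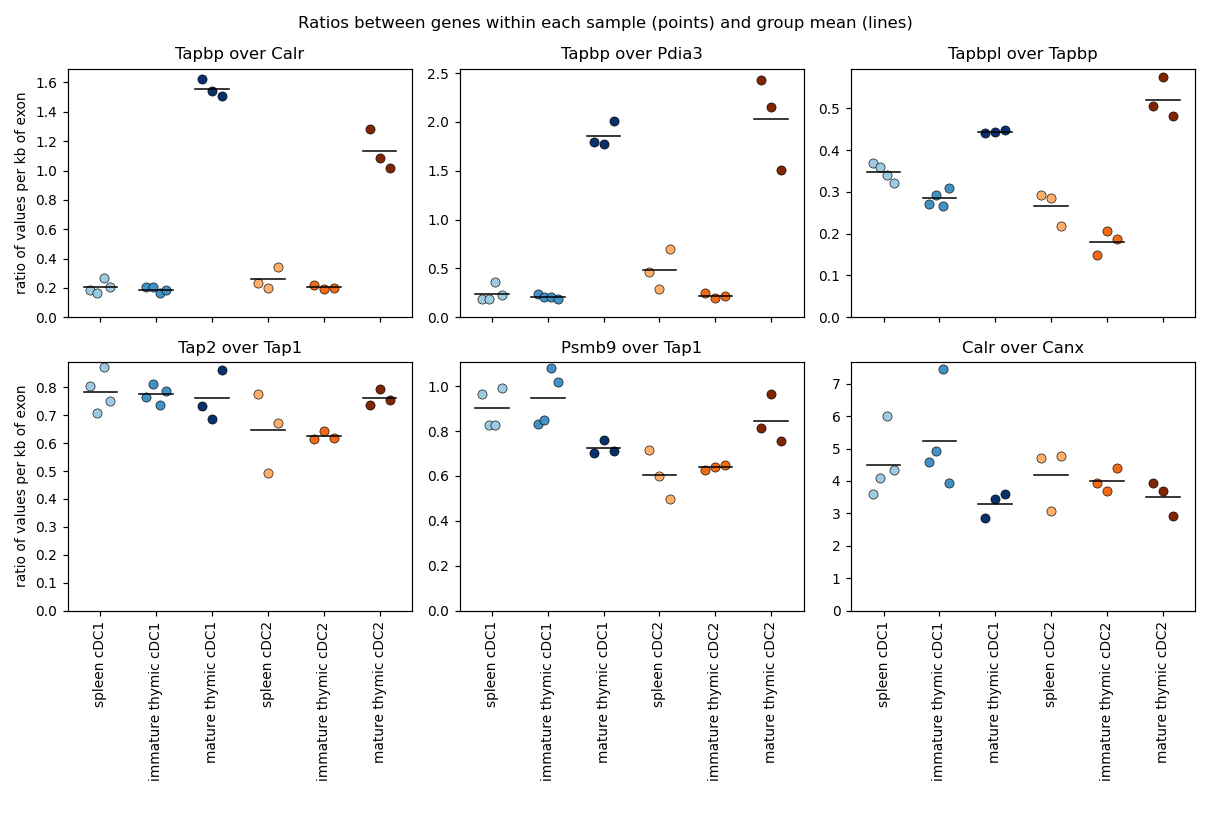
Ratios of normalized read counts per kilobase of exon between pairs of genes (y axes from 0) in each sample (points) of the 6 groups, with group means as lines. The ratios of Tapbp to Calr and of Tapbp to Pdia3 are above 1 in the mature samples and below 1 in the others, while Tap2 over Tap1 stays between 0.495 and 0.873 in all samples.

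Over the 20 samples, which fall into 6 groups and share their size factors, the log2 values of the 10 genes were compared with each other and with other genes by Pearson correlation, given as a description. Tap1 and Tap2 were most alike (r = 0.98), and each was the gene most like the other among 10224 genes with a mean value of at least 100. Slc25a38 (0.98 and 0.97) and Caskin2 (0.97 and 0.96) came next for both. The genes most like Tapbp were Map4 (0.99), Nans (0.98) and Gnb1 (0.98), those most like Tapbpl were Spint2, Sh3bp4 and Plekhb2 (0.99 each), and those most like Nlrc5 were Nfe2l1, Lnx2 and Icam1 (0.99 each). Tapbp, Tapbpl and Nlrc5 correlated at 0.96 with each other. Calr was most like Cct3 (0.98), Manf (0.97) and Dnajb11 (0.95), Pdia3 was most like Ormdl2 (0.95), Itgae (0.95) and Calr (0.95), and Canx most like Slc25a24 (0.94), Hsdl2 (0.94) and Pdia3 (0.92). Erap1 was most like Vps35 (0.92), Vps41 (0.91) and Rab6a (0.91), and Sec22b most like Ppib (0.89), Psmd13 (0.88) and Mmadhc (0.87). Calr had values of -0.45 with Nlrc5 and -0.02 with Tap1.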

How the data were processed

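RNA of sorted mouse cDCs was sequenced in 21 libraries (20 samples after averaging the repeated pair). Per the labels and the methods of the study, strand-specific mRNA libraries were trimmed with Cutadapt, aligned with STAR 2.6 to mm10, counted per gene with HTSeq-count and divided by size factors from DESeq2 1.24.0. The deposited values are thus a normalized signal per gene, not raw counts. Dividing by the smallest step gave whole reads for 100% of values in each library, and recomputed size factors differed from the deposited ones by ratios of 0.985 to 1.02.

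For this report limma 3.58.1 (R 4.3.3) was run on log2(value + 1), with a pseudocount of 1, 1 mean per group, all 6 groups in 1 model and a trended prior. Genes were kept when 3 or more samples had a value of 10 or more, which left 14970. P-values were adjusted by the Benjamini-Hochberg method over all of them, and adjusted p in the text are from this test. A fold change on this scale understates the change of low genes. The labels do not say that samples of a group came from separate experiments beyond their pool numbers. The p-values set differences of group means against the spread between these samples, estimated over all 6 groups. Samples that shared a pool counted as separate in this test. Counting error was small at these depths, since 534 reads was the lowest number behind a value of the 10 genes.

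edgeR 4.0.16 (quasi-likelihood, TMM or RLE factors) and DESeq2 1.42.0 were run on the recovered reads, and other pseudocounts, filters, thresholds, scalings, sequencing lanes, pool blocks and left-out samples were tried. The test scripts were tested on simulated data. Positions are those of GENCODE M21, which holds 37693 of the 37734 identifiers, and promoter windows those of RefSeq. The named genes are the 10 genes, the called genes of 6 lists of the class I pathway (up to 4 per list and comparison with the largest change and a mean value of at least 100, plus any that a count needs), the 3 genes most like each of the 10, and cell type markers. The 10 genes and the lists were chosen with earlier results of these data known. Promoter windows of Tap2, Tapbpl and Nlrc5 were not used here. A marker gene is not reported here.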

Additional observations from a re-analysis of the deposited data

Results flagged for a closer look

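Among 20 cases examined, each of 1 gene in 1 group of 4, there were 5 where 1 sample lay far from the rest. This was judged by the gap between that sample and its neighbour relative to the range of the group. Such a gap arises by chance in about 1 in 20 groups. Replicate 3 of splenic cDC1 had the highest Tap1 (15051), Tap2 (9071) and Tapbpl (2145) counts of its group. These cases share 1 sample and are not independent of each other. Replicate 2 of splenic cDC1 had a Calr count of 34933, and replicate 3 of immature thymic cDC1 had one of 62708. Groups of 3 samples were not examined in this way.

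Maturation effects differed between cDC2 and cDC1, in the test of the difference (cDC2 minus cDC1, log2 scale), for 7 of the 48 genes around the loading step (14.6%, near the 13.6% of all genes called in this test) and for none of the 10 genes themselves. The values were 1.09 ± 0.30 for Psmb9, 2.52 ± 0.92 for Thop1, -2.05 ± 0.24 for Irf1, 2.17 ± 0.33 for Wdfy4, 2.21 ± 0.74 for Rab43, 1.48 ± 0.28 for Rab27a and -1.07 ± 0.29 for Snap23. For Rab43, a small GTPase, the effects were -1.53 in cDC1 and 0.68 in cDC2, and for Snap23, a SNARE protein, 1.06 and -0.01. Effects of tissue differed for Pdia3 (1.07 ± 0.23), Pdia4 (1.20 ± 0.25) and Cybb (1.92 ± 0.46). The last pair were 4.17% of the 48 genes, where 4.98% of all genes were called.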

How the results depend on the processing

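Over 90 comparisons of the 10 genes and 38 other settings, 3350 values were recomputed. In 3252 the direction and the side of the threshold stayed, 36 passed it newly, 22 fell short of it and 40 changed sign. The count of genes called was the same with edgeR, DESeq2, other pseudocounts, other filters and TMM scaling in all 9 comparisons. Without the fold threshold the counts were 9 (maturation in cDC1), 4 and 5 (tissue in cDC1 and cDC2), and 7, 6 and 5 (subset in spleen, immature and mature thymic cells). With a log2 fold change above 2 they were 2 and 2 for maturation and 0 for tissue in cDC2, subset in spleen and immature thymic cells, and the difference of tissue effects. With the lane as a covariate, tissue in cDC2 had 2 calls. With lane 8 alone it had 3, subset in spleen 1, subset in immature thymic cells 1 and the difference of tissue effects 0. Upper quartile scaling, which moved the median of all genes by 0.18 and 0.12 for maturation, -0.11 for tissue in cDC2 and -0.14 for subset in mature cells, gave 1 call in the last, Pdia3. Leaving out 1 sample gave 5 to 5 and 5 to 7 calls for maturation, 0 to 0 and 1 to 2 for tissue, 1 to 3, 1 to 2 and 0 to 0 for subset, and 0 to 0 and 0 to 1 for the differences of maturation and tissue effects. These counts show only how the calls of the 10 genes moved. Shares of all genes stand above for adjusted p alone and are not given here for the other settings. The counts are therefore not set against a background.

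Values that changed sign were at most 0.25 in size and were not called. Sec22b in the subset comparison of mature cells was 0.0073 with edgeR and TMM, 0.0353 with TMM scaling and 0.000459 with the pool as a random replicate block. Tapbpl in tissue of cDC2 was -0.00294 with the lane as a covariate and -0.0644 with upper quartile scaling, and the difference of maturation effects of Nlrc5 was 3.54e-05 with TMM scaling. With lane 8 alone, Erap1 in maturation of cDC2 was -0.00422, Tap2 in tissue -0.0311 (cDC1) and -0.273 (cDC2), Tap1 and Nlrc5 in tissue of cDC2 -0.18 and -0.0049, Nlrc5 in subset of spleen 0.171, Erap1 in subset of immature cells 0.0706 and the difference of tissue effects of Tapbp -0.0831. Leaving out 1 sample, values ran from -0.29 to 0.11 (Tap1), -0.49 to 0.14 (Tap2) and -0.040 to 0.31 (Tapbp) for the difference of tissue effects, from -0.075 to 0.33 (Tap1), -0.28 to 0.34 (Tap2) and -0.066 to 0.14 (Tapbpl) for tissue in cDC2, and from -0.041 to 0.18 for Erap1 in tissue of cDC1. They ran from -0.026 to 0.19 for Erap1 in maturation of cDC2, from -0.13 to 0.057 (Erap1) and -0.18 to 0.033 (Sec22b) for subset in immature cells, from -0.070 to 0.065 for Sec22b in subset of mature cells, from -0.21 to 0.057 for Nlrc5 in subset of spleen, and from -0.042 to 0.17 (Sec22b) and -0.15 to 0.070 (Nlrc5) for the difference of maturation effects. The causes were not tested.

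Samples of cDC1 and cDC2 that share a pool number had correlations of their deviations from -0.15 to 0.461. For those of different pools they ran from -0.49 to 0.26. These ranges overlap, and the main test did not take the numbers as pairs. The correlation within a pool in the fit with a random effect was 0.155. The pool shared by mature cDC1 replicate 1 and immature thymic samples was not examined by such correlations. With the pool as a replicate block the counts of calls were unchanged, at 5, 6, 0, 1, 2, 2, 0, 0 and 1 with a random effect, and 2 and 2 for subset in spleen and immature cells with a fixed term.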
